A study of Mus musculus with 6 samples.

Results

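The FGF receptor system of 4T1 cells was described through 10 genes of the 53465 in the deposited gene table: the 4 receptor tyrosine kinases Fgfr1, Fgfr2, Fgfr3 and Fgfr4, the kinase-less receptor Fgfrl1, the ligands Fgf1, Fgf2, Fgf7 and Fgf10, and the FGF-binding protein Fgfbp1. The genes were listed by symbol, and the list was made around Fgfr2 because, of the tyrosine kinases, its transcript rose most in the axitinib-resistant line. The level and change of Fgfr2 are therefore given as a description, without a test.

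The mouse mammary carcinoma line 4T1 forms spontaneous metastases in Balb/c mice. RNA of parental (P) and axitinib-resistant (AxR) 4T1 cells was sequenced in 3 libraries per line. AxR cells were grown out of a metastatic lesion of the lung or lymph node that arose during treatment of mice with the VEGF receptor inhibitor axitinib (100 mg/kg/day), and were then held in 0.5 μM axitinib for over 2 months. The study calls the P cells of its expression comparison vehicle-treated. However, the growth description attached to the samples names RPMI with 5% FBS and 0.5 μM axitinib for all 6 samples. AxR is a single derived line, so drug exposure, passage through an animal, selection and time in culture cannot be told apart. Nothing in the labels says that the 3 libraries of a line came from separate cultures, and p-values measure the spread between these libraries, which may be technical.

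FGF receptors are tyrosine kinases that are activated when a secreted FGF and heparan sulfate bring receptor molecules together. The adaptor FRS2 then couples the receptor to the RAS-ERK and PI3K routes, while Sprouty proteins and dual-specificity phosphatases dampen the signal. In epithelia FGFR2 is usually spliced to its IIIb form, which binds FGF7 and FGF10 from the stroma, whereas mesenchymal cells usually carry the IIIc form, which binds FGF2 and other ligands. FGF1 binds both forms.

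The forms differ in the exon that encodes the C-terminal portion of the third immunoglobulin-like domain. The IIIb exon is shown because it decides whether the receptor can bind FGF7 and FGF10, and because the gene-level counts could not tell the forms apart. It lies in the interior of the gene at chr7:130199758-130199905 in GRCm38 on the minus strand, is coding sequence, and is printed 5′ to 3′ in lower case throughout.
IIIb: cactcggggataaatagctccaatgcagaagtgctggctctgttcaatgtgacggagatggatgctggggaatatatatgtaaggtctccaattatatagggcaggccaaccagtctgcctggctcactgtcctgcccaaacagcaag
The IIIb exon was 148 bases long and was part of 10 of the 17 coding Fgfr2 transcripts in GENCODE M21. Every Fgfr2 value below is the sum over the forms.

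Fgfr2 (ENSMUSG00000030849.18, chromosome 7, 130162451 to 133123350, minus strand) was by far the most abundant FGF receptor kinase in both lines. Its estimated counts were 1374, 1500 and 1323 in P replicates 1 to 3, and 6639, 7066 and 7077 in AxR replicates 1 to 3. All 3 AxR libraries lay above all 3 P libraries, and the libraries of each line lay close together. The level in CPM, the count scaled to the normalized library size, was 85.5 ± 1.69 in P and 425 ± 24.2 in AxR (mean ± SD, n = 3 each), a 4.97-fold difference or 2.31 on the log2 scale (SE 0.0542). By CPM per kilobase of exon, Fgfr2 stood at percentile 57.5 of the tested genes in P and at percentile 91.5 in AxR. Its log2 fold change ranked 298 of 13550 from the highest. The annotated span of Fgfr2 in GENCODE M21 is very long and shares 314 exon bases on the same strand with Ctbp2, whose counts of 1002 to 1200 in P and 885 to 1116 in AxR overlapped.

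Fgfr3 (ENSMUSG00000054252.17, chromosome 5, 33721674 to 33737068, plus strand), the only other FGF receptor kinase with more than 1 count in a library, was low in both lines. Its estimated counts were 66.05, 111 and 63 in P and 41, 64 and 76 in AxR, so that the lines overlapped. The level was 4.84 ± 1.36 CPM in P and 3.67 ± 0.931 CPM in AxR, with a log2 fold change of -0.40 (SE 0.223) that did not pass the threshold of 0.05 (adjusted p = 0.132, edgeR's quasi-likelihood test, adjusted by Benjamini-Hochberg over 13550 genes). Fgfr1 (ENSMUSG00000031565.18, chromosome 8, 25513654 to 25575718, plus strand), the main FGF receptor of many mesenchymal cells, had 0, 0 and 1 counts in P and 1, 1 and 0 in AxR. Fgfr4 (ENSMUSG00000005320.9, chromosome 13, 55152640 to 55168759, plus strand), the receptor through which the gut hormone FGF15 acts on liver, had 0 counts in all 6 libraries. At these depths a count of 0 allows 3 counts, or 0.171 to 0.196 CPM depending on the library, and these floors cover counting error only. A difference of Fgfr1 or Fgfr4 between the lines was not detectable at this depth.

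Levels of different genes were compared per kilobase of exon. On that scale Fgfr2 stood at 8.27 ± 0.164 CPM per kb in P and 41.1 ± 2.34 in AxR, and Fgfr3 at 0.677 ± 0.190 and 0.513 ± 0.130. As a share of the summed level of Fgfr1 to Fgfr4, Fgfr2 made up 93.5, 90.4 and 93.5% in the P libraries and 99.1, 98.7 and 98.5% in the AxR libraries, and Fgfr3 supplied nearly all of the rest. The sum of the 4 kinases was 8.95 ± 0.318 CPM per kb in P and 41.7 ± 2.35 in AxR, a ratio of 4.65 that was carried by Fgfr2. Both lines thus had the same order of receptors, with Fgfr2 over Fgfr3 by 12.8 ± 2.96 times in P and 84.4 ± 24.8 times in AxR, and with Fgfr1 and Fgfr4 at or near 0.

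**Figure D1:**
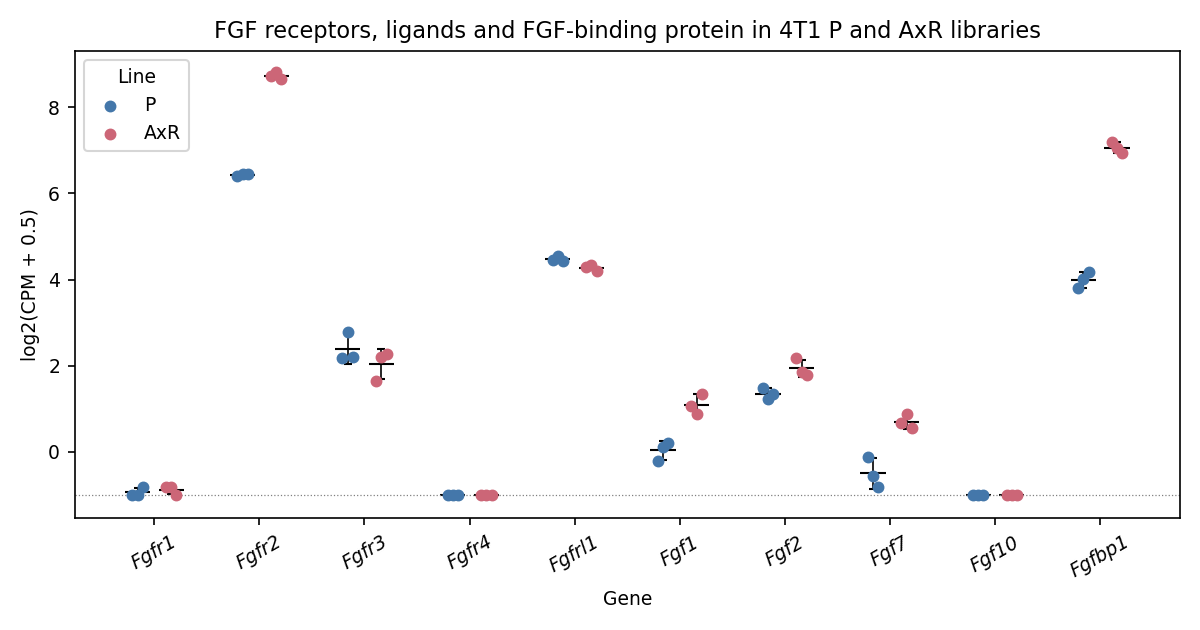
Levels of the 10 genes as log2(CPM + 0.5) on the vertical axis, with each point 1 library and each line in its own color. Fgfr2 and Fgfbp1 show the widest gaps between lines (log2 fold changes of 2.31 and 3.10), the libraries of Fgfr3 overlap, and Fgfr1, Fgfr4 and Fgf10 sit at the bottom in both lines.

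Fgfrl1 (ENSMUSG00000008090.14, chromosome 5, 108692382 to 108706924, plus strand) encodes a receptor that binds FGFs but lacks the kinase domain. Its estimated counts were 350, 394 and 322 in P and 302, 307 and 315 in AxR. Scaled to CPM, the lines did not overlap, but the gap between the lowest P and the highest AxR library was small. The mean was 21.7 ± 0.943 CPM in P and 18.9 ± 0.865 CPM in AxR, a log2 fold change of -0.20 (SE 0.0773) with adjusted p = 0.0340 by edgeR's quasi-likelihood test. The call was lost with DESeq2 (adjusted p = 0.0904), with no filter on low counts (0.0578) and when any 1 P library or AxR replicate 3 was left out (0.0542 to 0.127). Per kilobase, Fgfrl1 stood at 7.79 ± 0.339 in P, close to the 8.27 of Fgfr2, and at 6.79 ± 0.311 in AxR, far below the 41.1 of Fgfr2. Counted together with the kinases, Fgfrl1 brought the share of Fgfr2 to 49.4% in P and 84.9% in AxR.

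Of the member ligands, Fgf1, Fgf2 and Fgf7 were detected at low levels and Fgf10 was not. Fgf7 (ENSMUSG00000027208.14, chromosome 2, 126034658 to 126091185, plus strand), a ligand that stromal cells supply to epithelial FGFR2-IIIb, had 7, 3 and 1 counts in P and 17, 21 and 17 in AxR. All AxR libraries exceeded all P libraries. The level was 0.221 ± 0.185 CPM in P and 1.13 ± 0.191 CPM in AxR, with a log2 fold change of 2.29 (SE 0.467), given without a p. No P library reached the filter of 0.615 CPM, so that Fgf7 passed the filter only through its AxR libraries, and its fold depends on a handful of P counts.

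Fgf1 (ENSMUSG00000036585.15, chromosome 18, 38838673 to 38929472, minus strand), which binds all FGF receptors, had 6, 10 and 10 counts in P and 25, 21 and 36 in AxR. The lines did not overlap. Its level rose from 0.531 ± 0.149 to 1.66 ± 0.360 CPM, a log2 fold change of 1.64 (SE 0.329), given without a p. With 1 P library and all 3 AxR libraries over the filter, Fgf1 too passed the filter only through its AxR libraries.

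Fgf2 (ENSMUSG00000037225.13, chromosome 3, 37348346 to 37410108, plus strand), which is made without a signal peptide and stored on heparan sulfate, had 38.26, 32.13 and 30.57 estimated counts in P and 63.47, 48.92 and 51.58 in AxR. Again the lines did not overlap, at 2.06 ± 0.233 CPM in P and 3.36 ± 0.560 CPM in AxR. The log2 fold change of 0.70 (SE 0.203) passed the test (adjusted p = 0.00696, edgeR's quasi-likelihood test). Fgf2 shares 640 exon bases with Nudt6 on the opposite strand, and the estimated counts of both genes were not whole, as happens when reads are divided among genes. Nudt6 had 33.74, 28.87 and 36.43 counts in P and 47.53, 52.7 and 74.66 in AxR. The libraries were made with a kit that keeps strand, but whether strand was used in counting is not given in the sources used here, so reads of Fgf2 and Nudt6 may not be fully separated.

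Fgf10 (ENSMUSG00000021732.14, chromosome 13, 118669791 to 118792115, plus strand), the other main ligand of FGFR2-IIIb, had 0 counts in all 6 libraries, which allows up to the floor of 0.171 to 0.196 CPM. The ligands FGF7 and FGF10 are best known as products of fibroblasts. Of the 11 fibroblast markers listed, Col3a1, Lum and Thy1 were at 0 in every library. The 9 markers other than Postn and Pdgfra summed to 0.577 to 0.973 CPM in P and 0.796 to 1.40 CPM in AxR, while Postn rose by 4.82 and Pdgfra fell by 1.15 on the log2 scale. The part of other cells in the ligand counts was not tested, and in bulk RNA fewer cells of a type and less RNA per cell cannot be told apart.

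Among 14 further secreted ligands, Fgf21, a hormone-like FGF made in metabolic stress, was the only one that could be tested, and 11 of the 14 did not exceed the floor of 3 counts in any library. Fgf21 had 25, 27 and 21 counts in P and 55, 52 and 76 in AxR, without overlap, and rose from a mean of 1.48 to 3.71 CPM (log2 fold change 1.32, SE 0.206, adjusted p = 4.55e-05, edgeR's quasi-likelihood test). Per kilobase it stood at 1.56 in P and 3.90 in AxR, above each member ligand, of which Fgf2 was highest at 0.304 and 0.496. Its coreceptor gene Klb had 4, 2 and 1 counts in P and 0, 1 and 0 in AxR. Fgf22, another FGFR2-IIIb ligand, had 3, 5 and 3 counts in P and 19, 10 and 8 in AxR, and was under the filter of the test.

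Summed per kilobase, the 4 member ligands stood at 0.469 ± 0.0600 CPM per kb in P and 1.15 ± 0.0576 in AxR, and all 18 secreted ligands at 2.29 ± 0.0905 and 5.67 ± 0.444. These are ratios of 2.44 and 2.47, and both sums include Fgf1 and Fgf7, which passed the filter through AxR alone. Nothing is read from their being smaller than the ratio of the receptor sum, since Fgfr2 was chosen by its rise. The Fgfr2 transcript exceeded the summed transcripts of the 18 ligands 3.62 ± 0.186 times in P and 7.31 ± 0.996 times in AxR. The AxR value holds the rise by which Fgfr2 was chosen. Fgf21 made up most of the sum of the 18, at 1.56 CPM per kb in P and 3.90 in AxR. These sums carry no test.

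**Figure D2:**
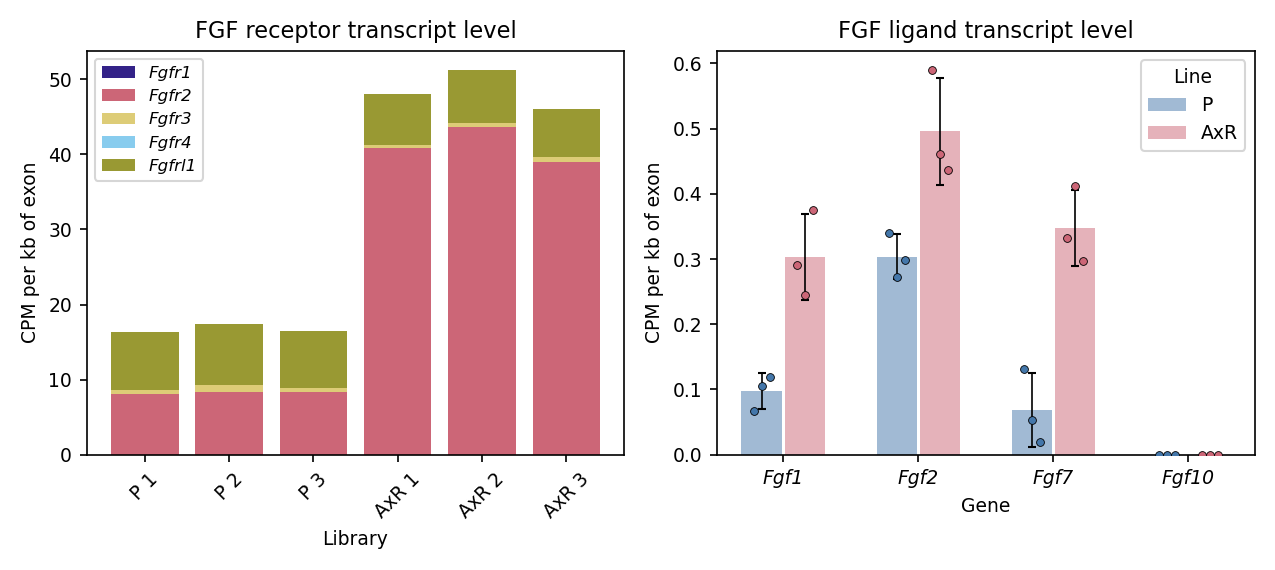
Levels in CPM per kb of exon. At left, Fgfr1 to Fgfr4 and the kinase-less Fgfrl1 are stacked for each library. At right, the 4 member ligands are shown by line. Fgfr2 accounts for nearly the whole level of the kinases Fgfr1 to Fgfr4 in all 6 libraries (90.4 to 99.1%). With Fgfrl1 counted, the mean share of Fgfr2 is 49.4% in P and 84.9% in AxR. The ligand axis spans values far below Fgfr2, with Fgf2 the highest of the 4.

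Fgfbp1 (ENSMUSG00000048373.8, chromosome 5, 43978858 to 43981779, minus strand) encodes a secreted carrier that releases FGFs from heparan sulfate, and it had the largest change of the 10 genes. Its estimated counts were 220, 271 and 268 in P and 2298, 2073 and 2137 in AxR. Every AxR library was far above every P library. The level rose from 15.5 ± 2.06 to 133 ± 12.2 CPM, an 8.60-fold rise or 3.10 on the log2 scale (SE 0.0926, adjusted p = 8.00e-12, edgeR's quasi-likelihood test). The gene moved from percentile 52.1 to percentile 94.6 of the tested genes by CPM per kilobase of exon. Per kilobase it stood at 6.85 ± 0.908 in P, under Fgfr2 and Fgfrl1, and at 58.9 ± 5.40 in AxR, the highest of the 10 genes.

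Of the 10 genes, 7 had enough counts to be tested. Including Fgfr2, 5 were higher in AxR, against 32.8% of all tested genes, and Fgfrl1 alone was lower, against 30.8%. The libraries of the lines did not overlap for 6 of the 7, against 68.3% of all tested genes, a share at which non-overlap is common between these lines. Fgfr2, Fgf1, Fgf7 and Fgfbp1 were higher by a log2 fold change of at least 1, a size that 7.99% of tested genes reached in that direction. Nothing is read from these counts, since Fgfr2 was chosen by its rise and Fgf1 and Fgf7 entered through AxR alone.

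The promoters of Fgfr2, Fgfbp1 and Fgfrl1 are shown because Fgfbp1 and Fgfr2 had the largest log2 fold changes of the 7 tested genes and Fgfrl1 the smallest in size. Each sequence is the 250 bases before the RefSeq start in GRCm38.p6, read 5′ to 3′ on the strand of the gene, at chr7:130266809-130267058 (minus) for Fgfr2, chr5:43981800-43982049 (minus) for Fgfbp1 and chr5:108693979-108694228 (plus) for Fgfrl1. Capitals mark GGGCGG, the GC box, searched on both strands together with TGANTCA (AP-1) and CACCTG (an E-box).
Fgfr2: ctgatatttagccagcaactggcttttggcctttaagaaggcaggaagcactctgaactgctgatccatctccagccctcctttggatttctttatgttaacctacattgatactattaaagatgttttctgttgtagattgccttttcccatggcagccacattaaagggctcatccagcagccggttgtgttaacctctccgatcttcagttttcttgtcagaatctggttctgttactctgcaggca
Fgfbp1: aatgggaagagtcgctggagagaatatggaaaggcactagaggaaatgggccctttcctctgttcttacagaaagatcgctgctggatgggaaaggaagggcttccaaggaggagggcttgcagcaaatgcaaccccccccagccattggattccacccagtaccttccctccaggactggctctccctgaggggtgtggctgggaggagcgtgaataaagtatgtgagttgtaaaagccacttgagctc
Fgfrl1: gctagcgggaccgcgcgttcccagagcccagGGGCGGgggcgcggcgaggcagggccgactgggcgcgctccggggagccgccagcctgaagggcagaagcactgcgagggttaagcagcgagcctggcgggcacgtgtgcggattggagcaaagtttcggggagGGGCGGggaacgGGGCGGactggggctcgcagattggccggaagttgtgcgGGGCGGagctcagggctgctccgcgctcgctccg
The Fgfrl1 window had 73.6% G and C and 4 GC boxes, and the Fgfr2 and Fgfbp1 windows had 44% and 53.6% and no GC box. RefSeq windows were found for 8 of the 10 genes, with 9 windows in all. The GC box was in 6 of the 9 (66.7%), beside 32.7% of 32817 windows genome-wide. Fgf7, at 43.6% G and C, was the third window without it. AP-1 and the E-box, found in 6.75% and 17.2% of all windows, were in none of the 9. These are matches of letters in short windows, and nothing about the factors follows from them. The Fgfr2 window lies 546 bases upstream of the farthest start of a consensus coding transcript.

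Neighbouring genes differed less between the lines than Fgfr2. Nothing is read from that gap, since Fgfr2 was chosen by its rise and only 7.99% of all tested genes were higher by at least 1. The next 5 tested genes on each side of its start, out to 1743 kb, had log2 fold changes of -0.24 to 0.68, with a median of 0.14, and none reached 1. Wdr11, the next on one side, was at 0.44, and Gm5903, the next on the other, at -0.24. The 20 other tested genes inside the long annotated span of Fgfr2 had a median of -0.057 and a range of -0.30 to 0.84. The next 5 tested genes on each side of Fgfbp1 had a median of 0.011 and ranged from -2.68 (Cd38) to 1.09 (Gm7879). The medians of the chromosomes that carry Fgfr2 and Fgfbp1 were 0.18 for chromosome 7 (1011 tested genes) and -0.16 for chromosome 5 (903 tested genes). For the tested member ligands they were 0.50 for chromosome 18 (Fgf1), 0.32 for chromosome 3 (Fgf2) and -0.093 for chromosome 2 (Fgf7). The part of whole chromosomes in these changes was not tested.

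**Figure D3:**
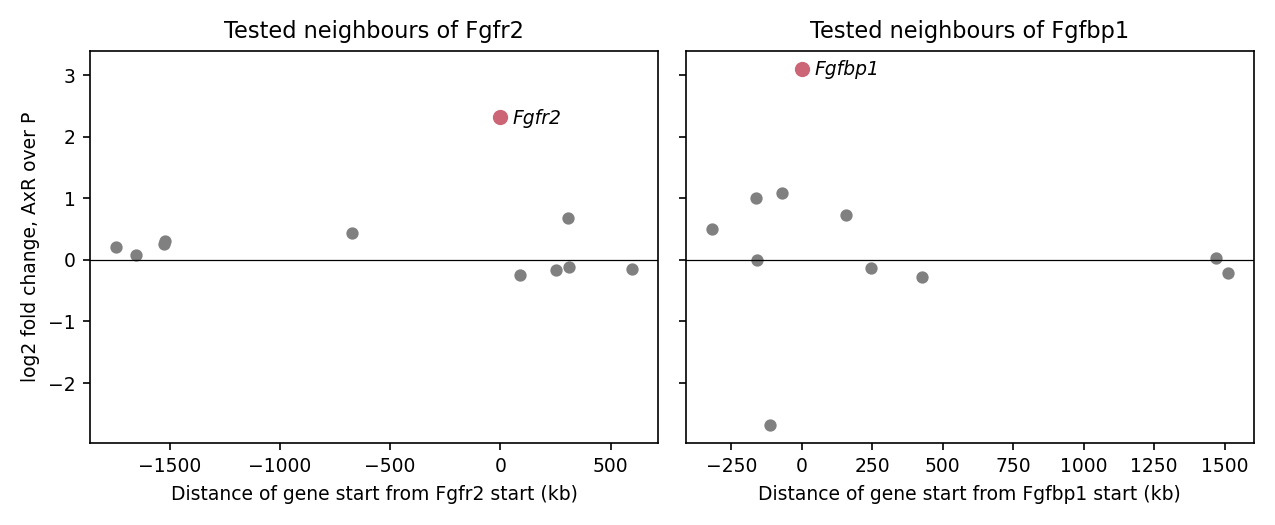
Log2 fold change of the next 5 tested genes on each side against the distance of their start from that of Fgfr2 (left) and Fgfbp1 (right) in kb. Fgfr2, which was chosen by its rise, is at 2.31, and its plotted neighbours reach 0.68. Fgfbp1 is at 3.10, and its plotted neighbours reach 1.09.

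Across the 6 libraries, Pias2 and Psmb8 were among the genes with a log2 CPM pattern most like that of Fgfr2 (Pearson r = 0.9998 each). Their log2 fold changes of 0.64 and 3.44 differed widely. The 6 points are 3 libraries of each of 2 lines, so the value of r reflects mainly the gap between lines, and 679 tested genes had r over 0.99.

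The genes around the receptor moved in both directions. Of 104 genes in 8 lists of ligands, partners and downstream genes of the pathway, 70 were tested, of which 25 were higher and 30 lower in AxR and 15 did not pass, with a median log2 fold change of -0.081. Among these, 3 were higher and 7 lower by at least 1, beside 7.99% and 4.72% of all tested genes, and the libraries of 55 did not overlap, beside 68.3%. At any size, 32.8% of all tested genes were higher and 30.8% lower, with a median of 0.0058.

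At the cell surface, 1 of 6 tested coreceptor and partner genes was higher and 2 were lower, beside 32.8% and 30.8% of all tested genes. Nrp1, a coreceptor of VEGF and semaphorin ligands, fell from 49.3 ± 2.61 to 22.6 ± 3.07 CPM (log2 fold change -1.13, adjusted p = 4.72e-08, edgeR's quasi-likelihood test), and the adhesion molecule gene L1cam fell by 1.28 (adjusted p = 5.71e-07). Flrt1 was higher by 0.52 (adjusted p = 0.0472), a call lost in 10 alternatives, and furthest without AxR replicate 3 (adjusted p = 0.347). The single tested intracellular FGF homologous factor, Fgf11, was lower by 1.01 on the log2 scale (adjusted p = 2.82e-06).

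Heparan sulfate takes part in the binding of many FGFs to their receptors. Of 8 tested core protein genes, 4 were higher and 2 lower, with the syndecan gene Sdc3 up from 17.7 to 38.6 CPM (log2 fold change 1.12, adjusted p = 2.23e-08, edgeR's quasi-likelihood test) and Sdc4 down from 295 to 185 CPM (-0.68, adjusted p = 4.51e-08). Of 10 tested genes for synthesis and editing of the chains, 3 were higher and 4 lower. Beside both lists stand 32.8% higher and 30.8% lower of all tested genes. Sulf2, which removes sulfate groups from heparan sulfate outside the cell, fell from 12.6 ± 1.64 to 3.11 ± 0.874 CPM (-2.02, adjusted p = 1.08e-07), and Hs6st1, which adds them, rose by 0.43. Ext2 (0.24) and Ndst1 (0.16) were also higher, and Ndst3 (-0.92), Glce (-0.76) and Ext1 (-0.21) were also lower. No direction of sulfation is read from these genes.

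Of the 24 relay genes that carry the signal from the receptor, 11 were higher and 9 lower, with a median of 0.074. Beside these counts stand 32.8% and 30.8% of all tested genes. Nras, a RAS protein gene, had by far the largest change of them, from 329 ± 11.6 to 2007 ± 77.8 CPM (6.10-fold, log2 fold change 2.61, SE 0.0508, adjusted p = 2.24e-14, edgeR's quasi-likelihood test). Frs2, the adaptor of FGF receptors, rose from 83.3 ± 2.85 to 132 ± 0.440 CPM (log2 fold change 0.66, adjusted p = 2.52e-08). Cbl, a ubiquitin ligase that removes activated receptors, was the lowest at -0.71.

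Genes listed as feedback inhibitors or targets of the pathway moved in both directions. Of 12 tested genes listed as feedback inhibitors 3 were higher and 6 lower (median -0.34). Cnpy2, among the higher at 0.64, was taken as listed, and its part in feedback was not tested. Of 8 target transcription factor and cyclin genes 2 were higher and 6 lower (median -0.42). Of all tested genes, 32.8% were higher and 30.8% lower, which stands beside both lists. The Sprouty gene Spry1 rose from 73.7 ± 1.63 to 145 ± 15.1 CPM (log2 fold change 0.98, adjusted p = 1.39e-08, edgeR's quasi-likelihood test). The ERK phosphatase genes Dusp7, Dusp5 and Dusp6 fell by 1.32, 1.20 and 0.59 on the log2 scale (adjusted p = 4.77e-11, 3.37e-09 and 1.37e-06). Fosl1, a FOS-family factor gene, fell from 223 ± 16.5 to 71.0 ± 9.47 CPM (-1.65, adjusted p = 1.64e-08), Etv4 fell by 0.99 (adjusted p = 5.27e-09) and Fos rose by 0.83, a call lost without P replicate 1 (adjusted p = 0.0532) or AxR replicate 2 (0.0692). These genes respond to many receptors, and the part of Fgfr2 in their levels was not tested.

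**Figure D4:**
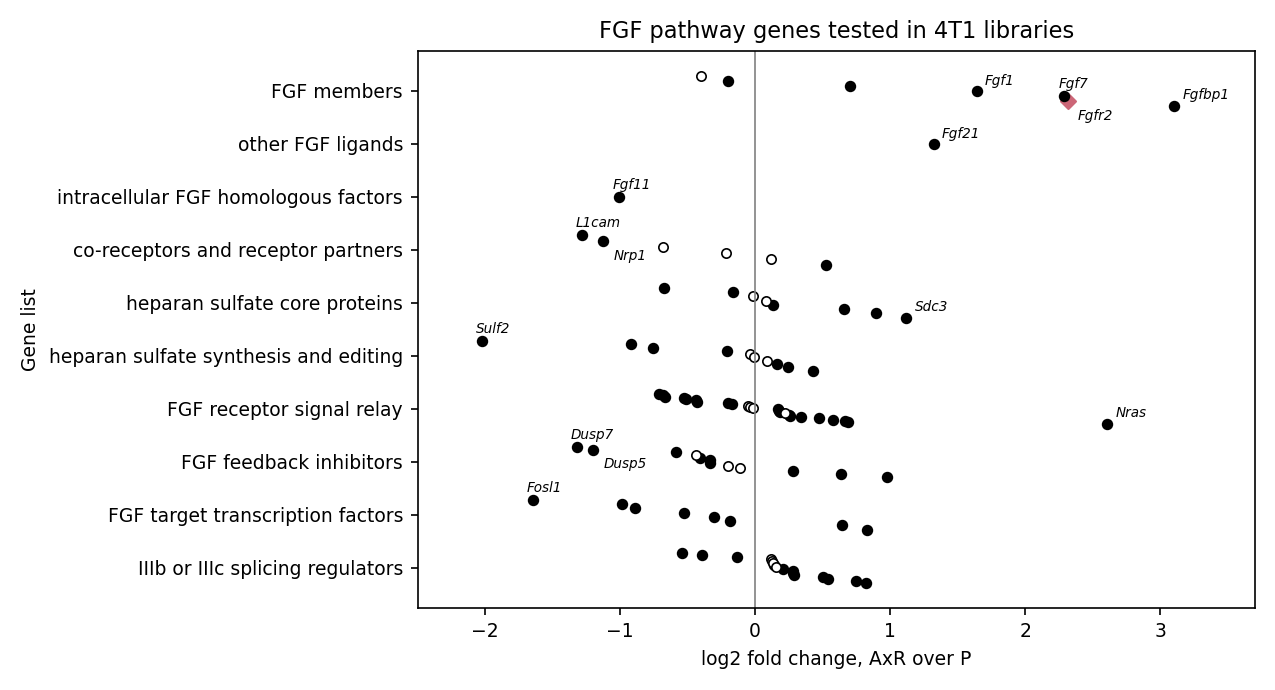
Log2 fold change (AxR over P) of each tested gene, with 1 row per gene list. Filled points passed an adjusted p of 0.05, open points did not, the diamond is Fgfr2, for which no test is given, and genes at 1 or more in either direction are named. Fgf1 and Fgf7 are drawn filled, but they passed the filter only through AxR and are given no p in the text. Nothing is read from the place of the members, since Fgfr2 was chosen by its rise. Pathway lists with more than 1 tested gene lie on both sides of 0, with Nras at 2.61 the highest.

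The regulators that choose between the IIIb and IIIc exons were also read, since the counts could not resolve the exons. Of 16 tested, 9 were higher and 3 lower, beside 32.8% and 30.8% of all tested genes, with a median of 0.18. Esrp1, which promotes IIIb, rose from 154 ± 3.00 to 271 ± 27.1 CPM (log2 fold change 0.82, adjusted p = 3.98e-08, edgeR's quasi-likelihood test), and its relative Esrp2 fell from 39.9 to 27.4 CPM (-0.54, adjusted p = 1.62e-05). Which Fgfr2 exon was used was not analysed here.

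4T1 is labelled a mammary carcinoma, and epithelial genes were present in both lines. Of 12 tested epithelial markers, 6 were higher and 5 lower in AxR: Cdh1 (E-cadherin) rose from 556 to 845 CPM, Krt14 was higher by 2.45, Krt19 fell by 1.31 and Cldn7 fell by 3.43 on the log2 scale, and Krt5 was at 0. All 7 tested mesenchymal markers passed the test, 2 higher and 5 lower. Zeb1, among the higher, passed the filter only through AxR. Of all tested genes 63.5% passed, 32.8% higher and 30.8% lower, and these shares also stand beside the epithelial counts. Zeb2 and Vim fell by 1.14 and 0.86, S100a4 was higher by 1.03, and Zeb1 had 1 count in each P library and 58, 50 and 60 in the AxR libraries, at least 17.5-fold higher against the highest library floor of 3 counts. Of 9 leukocyte markers only Cd14 and Cd68 were tested, higher by 1.26 and 1.24, and the other 7 summed to 0.261 to 0.462 CPM in P and 0.319 to 0.445 CPM in AxR, with Cd3e, Fcer1g and Tyrobp at 0. The 7 endothelial markers summed to at most 0.693 CPM, with Kdr and Emcn at 0. The 9 lung epithelial markers summed to 0.751 to 1.22 CPM in P and 4.57 to 4.72 CPM in AxR, most of the AxR sum being Foxj1, with Scgb1a1, Sftpd and Hopx at 0. The part of such cells in the FGF results was not tested.

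Depth was similar across libraries, at 15495260 to 17294525 estimated counts, and normalization factors lay between 0.966 and 1.02.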

How the data were processed

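Stranded, poly(A)-selected RNA libraries of 4T1 P and AxR cells, 3 per line, were sequenced. The authors aligned reads to GRCm38 (GENCODE M16) with STAR 2.6.0a after FastQC 0.11.5, and deposited estimated counts per gene from RSEM 1.3.1, which divides ambiguous reads among genes. The files precede filtering and normalization.

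Estimated counts were rounded to whole numbers. After filterByExpr and upper-quartile scaling, lines were compared in edgeR 4.0.16 (R 4.3.3) by its quasi-likelihood test (robust, line as the only term), with Benjamini-Hochberg adjustment over 13550 genes. Symbols, coordinates and exon lengths came from GENCODE M21, which held 53274 of the 53465 identifiers. Levels are CPM, and levels per kb are CPM divided by the union exon length. Lists and members were chosen with earlier results of these data known. Named genes were the members, list genes with an adjusted p under 0.05 and a log2 fold change of at least 1 in either direction or otherwise the highest and lowest of a list, markers at 0, the 3 genes most like Fgfr2 and the tested gene next to it on each side. A few items that the rule names are not reported here. Ctbp2, Nudt6, Fgf22, Klb, Cd38, Gm7879, Ext1, Ext2, Ndst1, Ndst3, Glce, Frs2, Spry1, Cnpy2, Dusp6, Etv4, Fos, Cdh1 and Vim were named after their values were seen where that rule did not name them. Alternatives were TMM, library size only, DESeq2 1.42.0, limma-voom (limma 3.58.1), other filters and lengths, a replicate block and leaving out each library. The test was tried on simulated counts with known changes in 200 genes and a spread common to all genes. In these data 63.5% of tested genes passed, so that trial does not measure the error of the test here. RefSeq promoter windows are from GRCm38.p6.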

Additional observations from a re-analysis of the deposited data

How the results depend on the processing

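Of the values compared between settings, 432 for single genes stayed on the same side of the threshold without a change of direction. Another 19 lost the call (Flrt1, Fgfrl1 and Fos) and 0 reversed. Many of these genes were named because they passed with a log2 fold change of at least 1 in either direction. Fgf1, Fgf7 and Zeb1, which passed the filter through AxR alone, are among them. The tally is therefore no measure of how robust the calls are. Fgfbp1 kept its call under every alternative (log2 fold change 3.01 to 3.20), as did Fgf2 (0.56 to 0.80, adjusted p 0.00513 to 0.0405). The log2 fold changes of Fgf1 and Fgf7, which passed the filter through AxR alone, ranged from 1.44 to 1.80 and from 1.90 to 3.13. Fgfr3 did not pass in any setting (adjusted p 0.0562 to 0.608).

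The count of members higher in AxR was 5 and fell to 3 when at least 10 counts were required in every library, since fewer genes were then tested. The count of members lower was 1, Fgfrl1, and was 0 with DESeq2, with no filter on low counts, with the replicate block and with a log2 fold change of at least 1 required. Leaving out 1 library gave 0 to 1. The size requirement reduced the pathway counts from 25 to 3 higher and from 30 to 7 lower. The share of Fgfr2 among receptors in P, 92.5%, was 94.4% with the longest transcript as length, 94.6% without division by length and 49.4% with Fgfrl1 added, and in AxR, 98.8%, it was 99.1%, 99.1% and 84.9%. The replicate number did not pair the libraries (correlations of deviations of -0.021, -0.0061 and -0.022). With it as a block, Fgfrl1 had an adjusted p of 0.0524. The causes of the changes were not tested where none is given. Depth limits Fgfr1, Fgfr4, Fgf10 and the P counts of Fgf7.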
